A study of Homo sapiens with 24 samples.

Results

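The genes described here are the extracellular heparan sulfate 6-O-endosulfatases SULF1 and SULF2 and the heparan sulfate proteoglycan core proteins SDC1, SDC2, SDC3 and SDC4 (syndecans), GPC1, GPC4 and GPC6 (glypicans) and HSPG2 (perlecan). These 10 genes were matched by symbol among the 62703 gene identifiers of the count files, and all 10 passed the filter on low counts that 16600 genes passed. SULF1 was chosen by its fall in WNK2- cells, so its values in WNK2- against WT cells are given as a description with no test. The other 9 were taken as members of the same families, with earlier results of these data known.

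RNA was sequenced from T/C-28a2 cells, an immortalised human chondrocyte line, in 24 libraries, 4 in each of 6 groups. Libraries labelled WT Ctr and WT Sor came from unmodified cells kept in isotonic media or under chronic sorbitol, a sugar alcohol that raises the osmolarity of the medium. Libraries labelled WNK2 trans Ctr and WNK2 trans Sor came from the same parental cells transfected with a plasmid encoding WNK2, a kinase of the family that responds to osmotic stress and low chloride, in isotonic media or with sorbitol. Libraries labelled WNK2- Ctr and WNK2- Sor came from cells in which CRISPR/Cas9 removed exon 2 of WNK2, again in isotonic media or with sorbitol. All groups share the parental line. The WNK2- cells were grown out from single sorted cells, so a clone's own features and the deletion cannot be told apart, and the transfected cells were compared with cells that received no plasmid.

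Heparan sulfate is a long, sulfated sugar chain attached to a small set of core proteins. Syndecans cross the membrane, glypicans are held at its outer face by a lipid anchor, and perlecan lies in the matrix, where in cartilage it surrounds each chondrocyte. The chains hold growth factors such as FGFs, BMPs, WNTs and hedgehog proteins, and the pattern of sulfate groups sets which of them bind. SULF1 and SULF2 act outside the cell and cut 6-O-sulfate from finished chains, which changes what the chains can hold.

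Total counts ran from 14153002 to 25664619 per library, with a median of 17506505.5. WNK2 itself was counted first as a check of the labels. It stood at 1441 to 3409 normalized counts (counts scaled to a common library size) in the libraries labelled WT Ctr and at 183.3 to 296 in those labelled WNK2 trans Ctr, against what the transfection label states. Under sorbitol it stood at 282.8 to 319 in WT Sor and at 2245 to 3793 in WNK2 trans Sor, and in the WNK2- groups at 311.1 to 419.4, where reads over the whole gene do not show exon 2. Directions that use either isotonic wild-type group therefore rest on its label, and exchanging the groups turns the sign of WNK2 trans Ctr against WT Ctr by construction. Where the exchange ends or turns a member's call described below, the exchanged value is given beside it. Of 10 chondrocyte markers, 6 were tested, SOX9 was at 0 in every library, and their sum was 3.79 to 30.7 CPM (counts scaled to the library total). The fibroblast and stromal markers summed to 967.9 to 6712 CPM, led by COL1A1 (mean 2559) and COL3A1, while COL1A2 averaged 0.32. That sum moved with the groups: WNK2 trans Ctr libraries had 5531 to 6712, WNK2 trans Sor 1107 to 1872, WT Ctr 2785 to 4008, WT Sor 3712 to 3964, WNK2- Ctr 2677 to 3026 and WNK2- Sor 967.9 to 1167. The WNK2 trans Ctr libraries had a chondrocyte sum of 25.9 to 30.7 CPM, those of WNK2 trans Sor had 5.36 to 7.6 and those of both WNK2- groups 3.79 to 7.996. Endothelial markers summed to 99.3 to 106.3 CPM in WNK2 trans Sor, 60 to 67.2 in WT Sor and 24.4 to 45.7 in the other 4 groups. PECAM1 averaged 50.4 and CDH5 50.2 in WNK2 trans Sor, and 52.7 and 9.38 in WT Sor. VWF, KDR and TEK averaged at most 2.645 in any group, with VWF and KDR highest in WNK2- Sor (1.858 and 2.645). Epithelial markers summed to 608 to 988.7 CPM in WT Ctr and 966.8 to 1240 in WNK2- Ctr, ranges that met. KRT8 and KRT18 led that sum (means of 561.3 and 317.2), while EPCAM and CDH1 averaged 0.91 and 0.34. The part of these markers in the results below was not tested. THY1 and CD68 were also listed at 0, so a 0 in these files is not read as absence of expression.

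Promoters are printed for 4 members that show the main patterns: GPC1 and SDC3, whose levels moved together over the libraries, SDC4, which moved the other way in the comparisons with the transfection label, and GPC6, which was lower in WNK2- than in WT cells in both media and has the fewest guanine and cytosine bases of the 4. Each runs from 250 bases before to 50 after the start site in RefSeq (GRCh38.p14), and capitals mark the GC box GGGCGG on either strand. The windows lie for GPC1 at chr2:240435413-240435712 on the plus strand, for SDC3 at chr1:30908709-30909008 on the minus strand, for SDC4 at chr20:45348375-45348674 on the minus strand and for GPC6 at chr13:93226557-93226856 on the plus strand.
GPC1: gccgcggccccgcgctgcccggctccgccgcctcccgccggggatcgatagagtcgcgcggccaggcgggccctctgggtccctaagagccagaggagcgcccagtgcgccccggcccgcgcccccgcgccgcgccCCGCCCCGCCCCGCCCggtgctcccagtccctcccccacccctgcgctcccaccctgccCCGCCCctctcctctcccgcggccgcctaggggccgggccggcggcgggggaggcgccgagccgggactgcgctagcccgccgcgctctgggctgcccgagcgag
SDC3: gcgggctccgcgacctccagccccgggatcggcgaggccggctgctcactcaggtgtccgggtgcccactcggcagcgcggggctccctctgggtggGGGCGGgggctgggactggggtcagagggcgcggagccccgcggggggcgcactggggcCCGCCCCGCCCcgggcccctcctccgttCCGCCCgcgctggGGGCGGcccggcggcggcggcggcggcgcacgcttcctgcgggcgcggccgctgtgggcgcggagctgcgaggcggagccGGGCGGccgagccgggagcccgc
SDC4: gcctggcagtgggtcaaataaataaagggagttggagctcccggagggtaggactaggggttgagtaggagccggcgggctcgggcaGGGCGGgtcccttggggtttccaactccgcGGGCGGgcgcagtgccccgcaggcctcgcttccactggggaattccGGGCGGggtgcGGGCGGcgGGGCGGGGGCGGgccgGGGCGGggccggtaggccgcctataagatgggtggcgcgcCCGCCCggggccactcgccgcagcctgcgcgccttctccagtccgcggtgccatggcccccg
GPC6: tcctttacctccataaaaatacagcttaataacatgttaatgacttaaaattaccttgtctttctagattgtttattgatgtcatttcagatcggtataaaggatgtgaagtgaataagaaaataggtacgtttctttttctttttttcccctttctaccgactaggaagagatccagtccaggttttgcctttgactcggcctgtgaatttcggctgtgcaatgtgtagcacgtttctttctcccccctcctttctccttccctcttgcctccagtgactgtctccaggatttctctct
GPC1 held 4 GC boxes with 83.3% guanine and cytosine, SDC3 held 6 with 84.0%, and SDC4 held 8 with 74.0%, overlapping matches counted each. GPC6 held none in these letters, had 40% guanine and cytosine, and held 1 match to TATAAA. The core TGGAAA of the tonicity element bound by NFAT5 occurred 1 time in SDC4 and in none of the other 3. Of 35116 promoters of this length, 45.0% held GGGCGG, 20.7% TGGAAA and 11.5% TATAAA, counting both strands. A match describes the letters of the window.

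Levels of different genes were compared per kilobase of exon. SDC4 had the highest mean of the 10 in each group, from 2605 normalized counts per kb in WNK2- Sor to 4062 in WNK2 trans Sor. In WNK2 trans Ctr its range met that of SULF2, with a lowest SDC4 value of 2587 and a highest SULF2 value of 2800. SULF1 and SULF2 came next in the libraries labelled WT Ctr (625.5 and 903 per kb), WT Sor (1930 and 1171) and WNK2 trans Ctr (1864 and 2452). In WNK2- Ctr SULF1 was lowest of the 10 at 15.9 per kb, and in WNK2- Sor it was lowest again at 16.9, within the range of GPC4 (mean 19.5). SULF2 stood at 172.6 and 155.9 in these groups, within the range of SDC2. SDC1 ranked 2 of 10 in both WNK2- groups at 919.7 and 875.1, whereas in WT Ctr its range met those of SULF1 and GPC1. GPC4 was lowest in the 4 wild-type groups at 1.87 to 3.13 per kb. GPC6 and HSPG2 could not be separated by their ranges in any of the 4 wild-type groups.

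**Figure D1:**
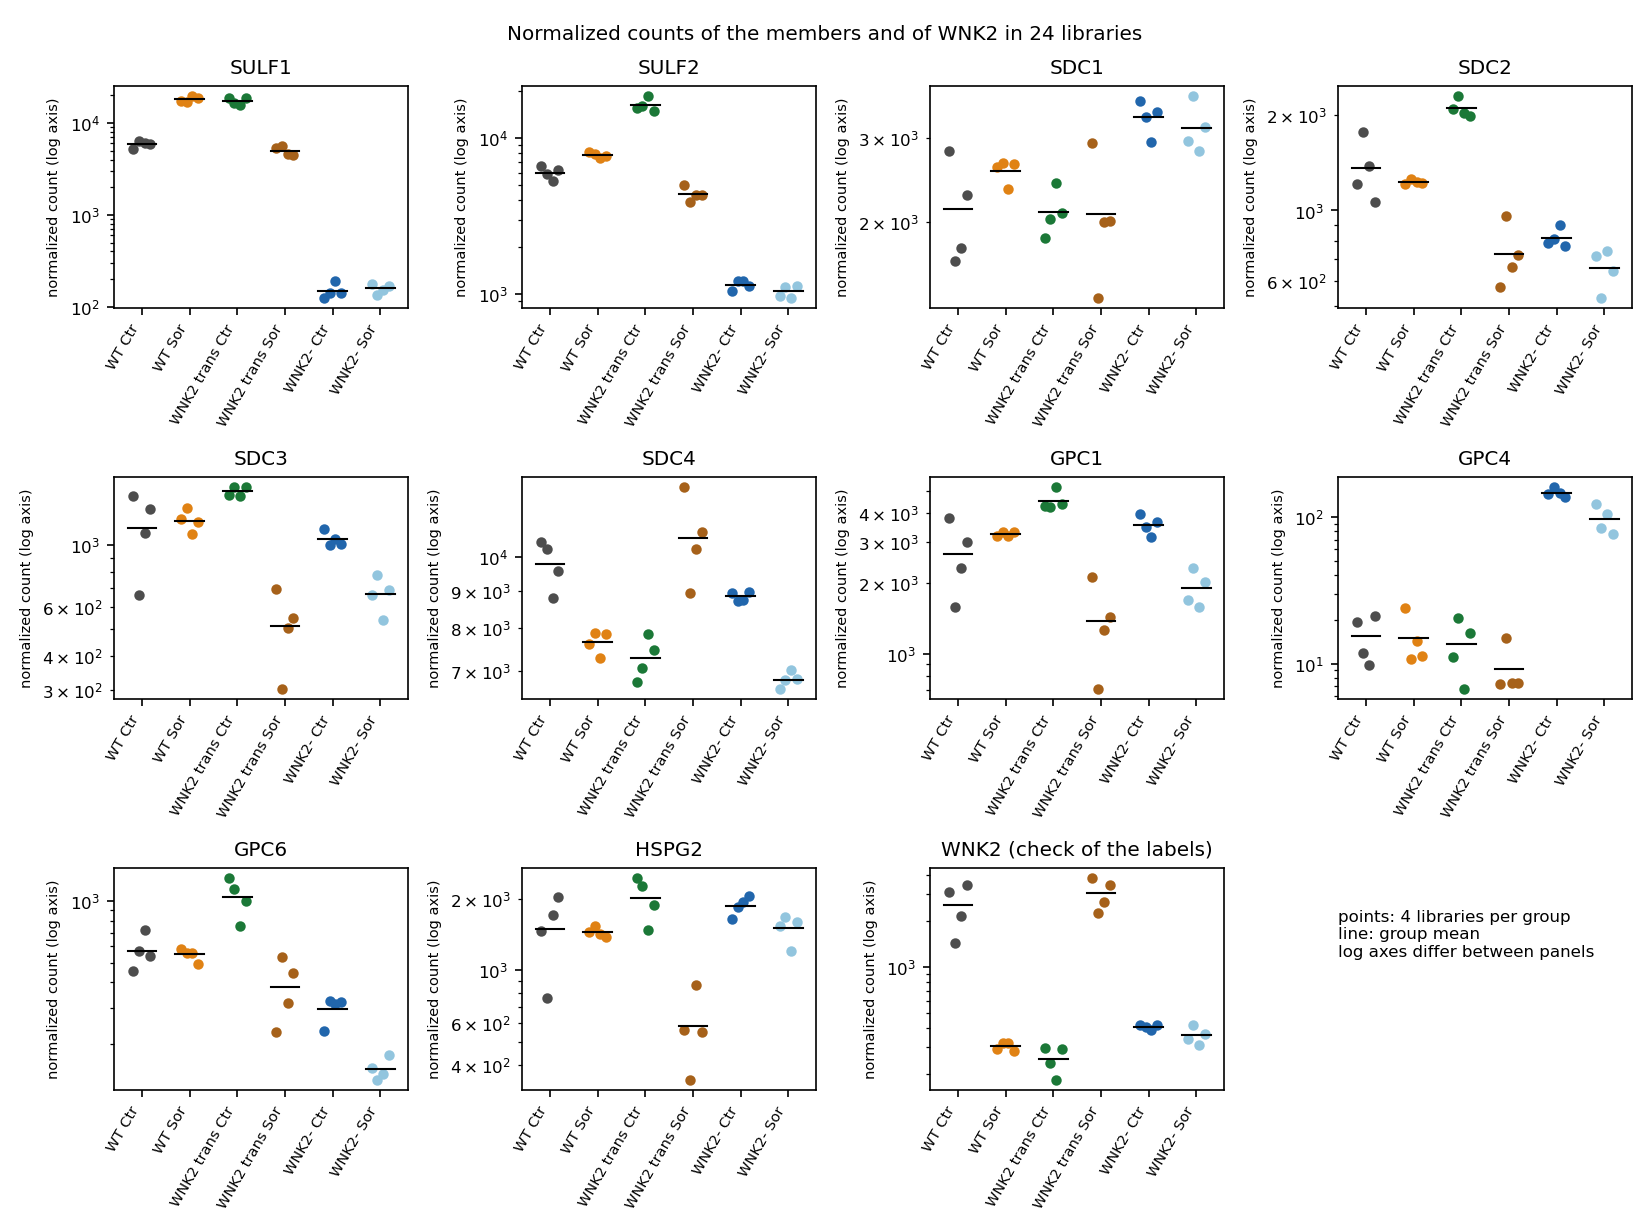
Normalized counts of the 10 genes and of WNK2 (y axis, log scale, different in each panel) in the 6 groups (x axis), with a point for each of 4 libraries and a line at the group mean. SULF1 lies at 125.1 to 190.5 in the WNK2- groups and at 4439 to 19660 in the other 4, and the WNK2 panel shows the high WT Ctr and WNK2 trans Sor groups.

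The 10 genes were counted against the share of all tested genes called in the same direction (edgeR's quasi-likelihood test, Benjamini-Hochberg adjusted p under 0.05 over 16600 genes). In WNK2- Ctr against WT Ctr, leaving out SULF1, 2 of 9 were higher and 3 lower, where 20.7% of all genes were higher and 21.5% lower. In WNK2- Sor against WT Sor, 1 of 9 was higher and 5 lower, against 23.7% and 22.7%. Between WT Sor and WT Ctr 2 of 10 were higher and 1 lower, against 11.4% and 12.7%. With WNK2 trans Ctr as the isotonic group this split turned to 0 higher and 3 lower (SULF2, SDC2 and GPC6), against 8.74% and 6.31%. Within WNK2- cells sorbitol gave 0 of 10 higher and 4 lower, against 8.25% and 6.64%. With libraries labelled WNK2 trans Ctr against WT Ctr, 5 of 10 were higher and 1 lower, against 5.57% and 6.98%. WNK2 trans Sor against WT Sor showed the reverse split, with 1 of 10 higher and 7 lower, against 16.1% and 15.5%, and the median log2 fold change of the 10 was −0.79 beside 0.01 for all genes. WNK2 trans Sor against WNK2 trans Ctr also gave 1 higher and 7 lower, against 24.3% and 23.7%, with a median of −1.57 beside 0.01. Against WT Ctr it gave 0 higher and 6 lower, against 19.8% and 19.5%, and WNK2- Ctr against WNK2 trans Ctr gave 3 of 9 higher and 4 lower, against 24% and 23.7%. These comparisons share groups, so their counts are not independent of each other. Groups said below not to overlap are read beside all tested genes. Groups did not overlap for 36.9% of them in WNK2- Ctr against WT Ctr and 53.9% in WNK2- Sor against WT Sor. The share was 25.7% for WT Sor against WT Ctr and 28.4% for sorbitol in WNK2- cells. It was 12.3% for WNK2 trans Ctr against WT Ctr, 30.3% for WNK2 trans Sor against WT Sor and 34.4% against WNK2 trans Ctr.

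The interaction terms ask whether the sorbitol response differed. Between WNK2- and WT cells, 0 of 9 were positive and 3 negative (SULF2, GPC1 and GPC6), against 3.99% and 4.66% of all genes. Between the transfection labels and WT, 1 of 10 was positive and 7 negative, against 18.1% and 17.4%. With the other isotonic wild-type group in place, the latter count went from 8 to 1, which was SULF2 with 0.61 log2 units (adjusted p = 0.00509), against 3.04% positive and 2.42% negative. The interaction with genotype then had SULF2 positive and SDC4 negative (−0.45 log2 units, adjusted p = 0.0292), against 1.09% and 2.3%.

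**Figure D2:**
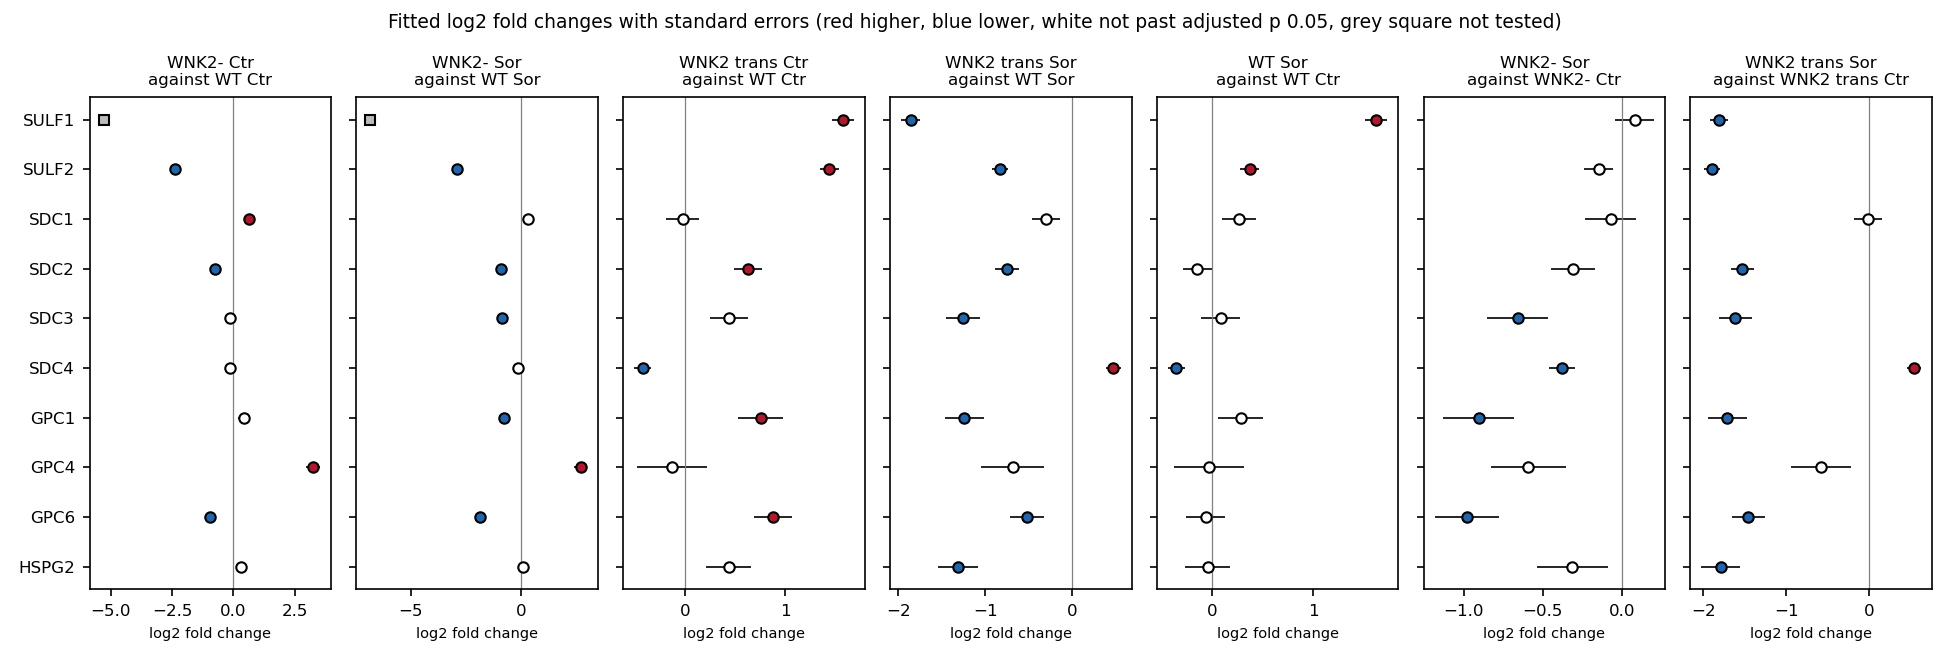
Log2 fold change of each member (y axis) in 7 comparisons (panels, x axes differ), with bars of 1 standard error; red and blue points passed an adjusted p of 0.05, white points did not, and grey squares were not tested because SULF1 was chosen on that contrast. SDC4 lies opposite to the other called members in both comparisons of the transfection label with WT.

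SULF1 carried the widest range of levels. In the libraries labelled WT Ctr it had 5271, 6313, 6070 and 5875 normalized counts, and in WT Sor 17190, 17010, 19660 and 18720. In WNK2- Ctr it had 125.1, 142.3, 190.5 and 141.6, and in WNK2- Sor 178.2, 135.9, 150.7 and 169.2. All 8 WNK2- libraries thus lay far below all 8 WT libraries, which is the pattern that chose the gene. The log2 fold change was −5.29 in isotonic media (39.2-fold lower) and −6.84 under sorbitol (114-fold lower). In bulk RNA, fewer cells with a transcript and less of it per cell cannot be told apart. Under sorbitol in WNK2- cells SULF1 had overlapping groups and a log2 fold change of 0.08 (SE 0.12, adjusted p = 0.732).

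Among wild-type cells SULF1 was high in WT Sor and in the libraries labelled WNK2 trans Ctr. WNK2 trans Ctr had 18970, 16410, 15810 and 18930 normalized counts of SULF1, and WNK2 trans Sor had 5367, 5582, 4625 and 4439. The 8 libraries of WT Ctr and WNK2 trans Sor thus held 4439 to 6313, with 1441 to 3793 normalized counts of WNK2, and the 8 libraries of WT Sor and WNK2 trans Ctr held 15810 to 19660, with 183.3 to 319 of WNK2. WT Sor exceeded WT Ctr by 1.63 log2 units (SE 0.11, adjusted p = 1.18e-10, 3.08-fold). WNK2 trans Sor was below WT Sor by a log2 fold change of −1.86 (SE 0.11, adjusted p = 4.84e-12) and below WNK2 trans Ctr with a log2 fold change of −1.81 (SE 0.11, adjusted p = 1.15e-12), with no overlap in either. With WNK2 trans Ctr as the isotonic group, WT Sor differed from it by 0.05 log2 units (adjusted p = 0.817), and with WT Ctr as the isotonic group WNK2 trans Sor differed by −0.23 log2 units (adjusted p = 0.0874). The calls of a sorbitol response of SULF1 in wild-type cells were thus lost when the isotonic group was exchanged.

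SULF2, the other endosulfatase, also had its lowest levels in WNK2- cells. The rule took SULF2 by family, but with earlier results of these data known. It had 6623, 5861, 5294 and 6266 normalized counts in WT Ctr, and 1040, 1215, 1212 and 1129 in WNK2- Ctr. It had 8101, 7910, 7457 and 7702 in WT Sor, and 971.7, 1113, 944.8 and 1123 in WNK2- Sor. No WNK2- library reached the lowest WT library. The log2 fold change was −2.39 in isotonic media (SE 0.10, adjusted p = 1.35e-15, 5.23-fold) and −2.91 under sorbitol (SE 0.10, adjusted p = 1.4e-17, 7.51-fold), and with WNK2 trans Ctr as the isotonic group the former was −3.83 log2 units (adjusted p = 1.55e-19).

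In the libraries labelled WNK2 trans Ctr SULF2 had 15590, 16150, 18640 and 14920 normalized counts, above every other group, and in WNK2 trans Sor 5021, 3896, 4292 and 4331. WNK2 trans Ctr exceeded WT Ctr by 1.44 log2 units (SE 0.09, adjusted p = 4.64e-11), and WNK2 trans Sor lay below WT Sor by a log2 fold change of −0.83 (SE 0.09, adjusted p = 1.84e-07). WT Sor exceeded WT Ctr by 0.38 log2 units (SE 0.09, adjusted p = 0.0043), but lay below WNK2 trans Ctr with a log2 fold change of −1.07 (adjusted p = 9.14e-09), so the sign of the sorbitol difference turned with the isotonic group. In WNK2- cells sorbitol gave −0.15 log2 units (SE 0.09, adjusted p = 0.339). The interaction of genotype and sorbitol, −0.52 log2 units (SE 0.13, adjusted p = 0.0136), likewise turned to 0.92 log2 units (adjusted p = 7.14e-05) with the other isotonic group. On the opposite strand, 4.63% of SULF2's exon bases are shared with another gene, and the strand setting of the counting is not stated.

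Summed per kilobase, SULF1 and SULF2 stood at 1528 ± 58.8 (SD, n = 4) in WT Ctr, 3100 ± 97.0 in WT Sor, 4316 ± 134.5 in WNK2 trans Ctr and 1191 ± 92.7 in WNK2 trans Sor. In WNK2- cells the sum was 188.5 ± 14.7 (SD, n = 4) in isotonic media and 172.8 ± 13.6 under sorbitol. SULF1 made up 41.0% ± 3.89 (SD, n = 4) of the sum in WT Ctr and 62.2% ± 2.43 in WT Sor. In WNK2- Ctr its share was 8.42% ± 1.08 and in WNK2- Sor 9.81% ± 1.46, so most sulfatase reads of WNK2- cells were SULF2.

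**Figure D3:**
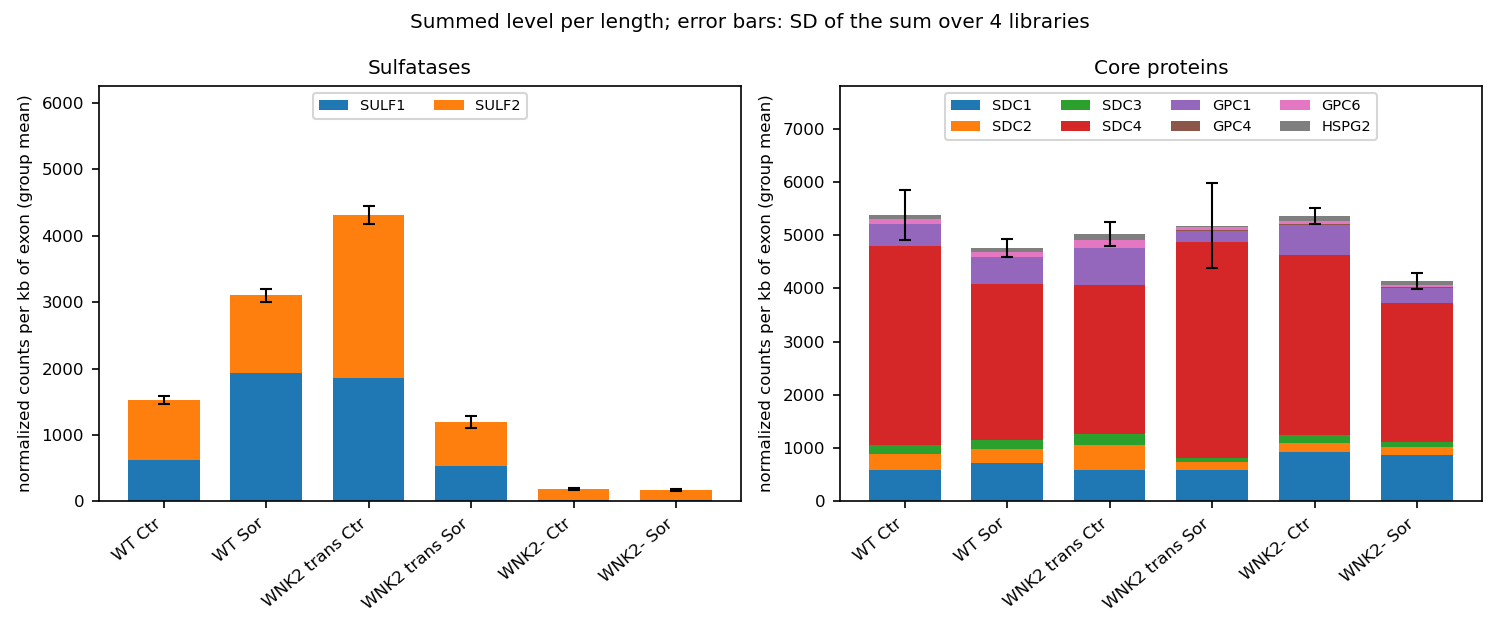
Stacked group means of normalized counts per kb of exon (y axis) for the sulfatases (left) and the 8 core proteins (right) in the 6 groups (x axis), with bars for the SD of the sum over 4 libraries. The sulfatase sum, which holds SULF1, chosen by its fall in WNK2- cells, runs from 172.8 in WNK2- Sor to 4316 in WNK2 trans Ctr. The core protein sum, mostly SDC4, runs from 4139 to 5379.

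The 8 core proteins together varied less between groups. This is a description, since the sulfatase sum holds SULF1, which was chosen by its fall in WNK2- cells. Their sum per kilobase was 5379 ± 473.4 (SD, n = 4) in WT Ctr, 4756 ± 168.4 in WT Sor, 5359 ± 151.4 in WNK2- Ctr and 4139 ± 147.1 in WNK2- Sor. SDC4 made up 55.4% to 78.6% of it (group means), so the sum mainly follows SDC4 and hides larger changes of other core proteins given below. The share of SDC4 was lowest in WNK2 trans Ctr and highest in WNK2 trans Sor. That of SDC1 was 10.9% ± 1.86 (SD, n = 4) for WT Ctr and 17.1% ± 0.97 for WNK2- Ctr.

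SDC4, a syndecan of focal adhesions, ran against the other called members in the comparisons of the transfection label. It had 10490, 10260, 8784 and 9571 normalized counts in WT Ctr, and 7612, 7883, 7290 and 7854 in WT Sor. It had 6759, 7050, 7845 and 7469 in the libraries labelled WNK2 trans Ctr, and 12460, 8923, 10260 and 10810 in WNK2 trans Sor. The groups with high WNK2 counts, WT Ctr and WNK2 trans Sor, did not overlap the other 2 wild-type groups. SDC4 was higher in WNK2 trans Sor than in WT Sor by 0.47 log2 units (SE 0.08, adjusted p = 0.000107) and lower in WT Sor than in WT Ctr, with a log2 fold change of −0.35 (SE 0.08, adjusted p = 0.00313). The latter was 0.07 log2 units (adjusted p = 0.622) with WNK2 trans Ctr as the isotonic group.

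In WNK2- cells SDC4 had 8940, 8720, 8731 and 8964 normalized counts in isotonic media and 6614, 6789, 7012 and 6816 under sorbitol. The groups did not overlap, and the log2 fold change was −0.38 (SE 0.08, adjusted p = 0.00221), a comparison that uses neither WT Ctr nor WNK2 trans Ctr. Against WT Ctr the WNK2- Ctr libraries differed by −0.15 log2 units (SE 0.08, adjusted p = 0.165), but against WNK2 trans Ctr by 0.28 log2 units (adjusted p = 0.00702). Against WT Sor, WNK2- Sor differed by −0.17 log2 units (adjusted p = 0.0963), which passed when the compared groups alone were fitted (adjusted p = 0.00683), after the GC correction (log2 fold change −0.23, adjusted p = 0.00817) and without WNK2 trans Sor replicate 1 or 2 (0.0362 and 0.0409).

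SDC1, a syndecan best known from epithelia and plasma cells, was higher in WNK2- cells in isotonic media. It ranged from 2933 to 3581 normalized counts in WNK2- Ctr and from 1651 to 2807 in WT Ctr, which did not overlap, and the log2 fold change was 0.64 (SE 0.17, adjusted p = 0.0029). Under sorbitol WNK2- libraries held 2807 to 3665 and WT libraries 2336 to 2656. These did not overlap either, but the difference of 0.30 log2 units (SE 0.16, adjusted p = 0.143) passed only when the compared groups alone were fitted (adjusted p = 0.00388) or after the GC correction described below (log2 fold change 0.57, adjusted p = 3.56e-09). No comparison of sorbitol or of the transfection label passed for SDC1 in the joint fit, with log2 fold changes of −0.30 to 0.27. Without WNK2 trans Sor replicate 1, WNK2 trans Sor against WT Sor passed (log2 fold change −0.53, adjusted p = 0.0074). After the GC correction SDC1 passed in WT Sor against WT Ctr (log2 fold change 0.18, adjusted p = 0.0223) and in WNK2 trans Sor against WNK2 trans Ctr (log2 fold change 0.36, adjusted p = 1.02e-05).

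SDC2, a syndecan of mesenchymal cells, was lower in WNK2- cells in both media. It ranged from 772.2 to 898.2 normalized counts in WNK2- Ctr and 1066 to 1772 in WT Ctr, and from 529.4 to 745.8 in WNK2- Sor and 1211 to 1256 in WT Sor. The log2 fold changes were −0.73 (SE 0.14, adjusted p = 0.000163) and −0.90 log2 units (SE 0.14, adjusted p = 1e-05), with no overlap in either medium. It was highest in the libraries labelled WNK2 trans Ctr at 1994 to 2301, and in WNK2 trans Sor fell to 572.8 to 962.6, below WT Sor by a log2 fold change of −0.75 (SE 0.14, adjusted p = 0.000222). WT Sor and WT Ctr overlapped (log2 fold change −0.14, adjusted p = 0.494), whereas WT Sor lay below WNK2 trans Ctr with a log2 fold change of −0.78 (adjusted p = 0.000315). Within WNK2- cells the groups did not overlap, yet the difference of −0.31 log2 units (SE 0.14, adjusted p = 0.155) passed only with the 2 groups fitted alone (adjusted p = 0.0208) or after the GC correction (adjusted p = 0.012).

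SDC3, the syndecan first described in nerve and also found in developing cartilage, differed between genotypes under sorbitol. It had 1246, 1355, 1092 and 1207 normalized counts in WT Sor, and 662.4, 778.7, 537.1 and 688.9 in WNK2- Sor. The groups did not overlap, with a log2 fold change of −0.88 (SE 0.19, adjusted p = 0.000543). In isotonic media the difference was −0.13 log2 units (SE 0.19, adjusted p = 0.616), and −0.57 log2 units (adjusted p = 0.0156) against WNK2 trans Ctr. WNK2 trans Sor held 304.1 to 694.3, below WT Sor by a log2 fold change of −1.26 (SE 0.20, adjusted p = 2.21e-05). Within WNK2- cells sorbitol gave −0.66 log2 units (SE 0.19, adjusted p = 0.0194), a call lost when any of 3 libraries was left out (adjusted p = 0.0571 without WNK2- Ctr replicate 1, 0.0501 without WNK2- Sor replicate 1 and 0.0777 without its replicate 3).

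GPC1 is the glypican most widely expressed in adult tissue. In WT Ctr it had 3810, 1585, 2328 and 3001 normalized counts, and in WT Sor 3196, 3321, 3195 and 3338. In WNK2- Ctr it had 3982, 3499, 3173 and 3650, and in WNK2- Sor 1698, 2330, 1589 and 2022. The 4 WNK2- Sor libraries lay below all WNK2- Ctr and all WT Sor libraries, while WT Ctr spread across both ranges. Sorbitol in WNK2- cells gave −0.91 log2 units (SE 0.23, adjusted p = 0.00674, 1.87-fold) and WNK2- Sor against WT Sor −0.77 log2 units (SE 0.23, adjusted p = 0.00674). In isotonic media WNK2- differed from WT by 0.42 log2 units (SE 0.23, adjusted p = 0.143), and by −0.34 log2 units (adjusted p = 0.224) with WNK2 trans Ctr as the isotonic group. The difference from WT Ctr passed when WT Ctr replicate 1 was left out (log2 fold change 0.63, adjusted p = 0.0287). The interaction of genotype and sorbitol was −1.19 log2 units (SE 0.32, adjusted p = 0.0207), but −0.43 log2 units (adjusted p = 0.627) with WNK2 trans Ctr as the isotonic group, and its adjusted p was 0.055 without WNK2- Sor replicate 3.

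With the transfection label, GPC1 had 4299, 4245, 5177 and 4364 normalized counts in the libraries labelled WNK2 trans Ctr and 2133, 705.6, 1261 and 1428 in WNK2 trans Sor. WNK2 trans Sor lay below WT Sor without overlap, by a log2 fold change of −1.24 (SE 0.23, adjusted p = 0.000186). WNK2 trans Ctr exceeded WT Ctr by 0.75 log2 units (SE 0.23, adjusted p = 0.0277), a call lost without WT Ctr replicate 2 (log2 fold change 0.57, adjusted p = 0.12) or replicate 3 (log2 fold change 0.70, adjusted p = 0.0805). It was also lost without WNK2 trans Ctr replicate 3 (log2 fold change 0.69, adjusted p = 0.0645) or replicate 4 (log2 fold change 0.78, adjusted p = 0.0528), and with the compared groups alone fitted (adjusted p = 0.0702).

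The exon sequence of GPC1 is 65% guanine and cytosine (GC), a higher content than in 96.8% of tested genes, and HSPG2 (63.5%), SDC3 (60.7%) and SDC1 (60.3%) were also GC-rich. Libraries differed in how counts ran with GC content, from −0.25 to 0.26 log2 units per 10 percentage points within WT Ctr and from −0.45 to 0.14 within WNK2 trans Sor, but only from 0.07 to 0.14 within WT Sor. The lowest GPC1 library of WT Ctr and of WNK2 trans Sor, replicate 2 in each, also had the lowest trend of its group, and the highest GPC1 library, replicate 1, the highest trend. When the GC and length trends were taken out, a step added after seeing the values, these GPC1 calls kept their side of the threshold with smaller sizes. In WNK2- Ctr against WT Ctr GPC1 then passed as well (log2 fold change 0.36, adjusted p = 0.000142). Its log2 fold change was −0.73 for sorbitol in WNK2- cells (adjusted p = 1.16e-08), −0.33 for WNK2- Sor against WT Sor (adjusted p = 0.000392) and −0.62 for WNK2 trans Sor against WT Sor (adjusted p = 1.31e-07). SDC3 then had −0.59 for WNK2- Sor against WT Sor (adjusted p = 1.02e-05) and −0.89 for WNK2 trans Sor against WT Sor (adjusted p = 5.22e-08).

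GPC4, a glypican known as a co-receptor for growth factors, was the member most raised in WNK2- cells. It had 19.3, 11.8, 9.74 and 21.2 normalized counts in WT Ctr, and 143.1, 159.6, 145.7 and 137.4 in WNK2- Ctr. It had 23.9, 10.8, 14.2 and 11.2 in WT Sor, and 122.2, 83.4, 105.3 and 76.7 in WNK2- Sor. All WNK2- libraries lay above all WT libraries, with log2 fold changes of 3.24 in isotonic media (SE 0.29, adjusted p = 2.21e-09, 9.47-fold) and 2.68 under sorbitol (SE 0.29, adjusted p = 3.12e-08, 6.41-fold). In the WNK2 trans libraries it stood at 6.75 to 20.5, and no comparison within wild-type cells passed. Sorbitol in WNK2- cells gave −0.59 log2 units (SE 0.24, adjusted p = 0.101), with groups that did not overlap, and passed with those groups fitted alone (adjusted p = 0.00474) and after the GC correction (adjusted p = 0.0435). The rise is therefore from a level near the filter, and per kilobase GPC4 in WNK2- cells still lay below SDC1, SDC2, SDC3 and GPC1.

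GPC6, a glypican needed for the growth of long bones, was lower in WNK2- cells. It had 452.2, 570.8, 719.4 and 539 normalized counts in WT Ctr, and 230.2, 325.6, 312.1 and 319 in WNK2- Ctr. It had 584.7, 556.7, 556 and 493.1 in WT Sor, and 151.6, 133.4, 142 and 175.7 in WNK2- Sor. The groups did not overlap in either medium, as was so for 36.9% and 53.9% of all tested genes. The log2 fold change was −0.94 in isotonic media (SE 0.20, adjusted p = 0.000408) and −1.86 under sorbitol (SE 0.21, adjusted p = 4.19e-08, 3.63-fold), and sorbitol within WNK2- cells gave −0.98 log2 units (SE 0.20, adjusted p = 0.00134).

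In the libraries labelled WNK2 trans Ctr GPC6 had 1295, 1144, 753.4 and 1001 normalized counts, above all WT Ctr libraries by a log2 fold change of 0.88 (SE 0.19, adjusted p = 0.00269). WNK2 trans Sor had 229.8, 534, 316 and 444.4 and overlapped WT Sor. Its fold change of −0.52 log2 units (SE 0.20, adjusted p = 0.0448) lost its call in 6 of the 24 fits that left out a library, with adjusted p of 0.00742 to 0.121 and the smallest size, −0.36, without WNK2 trans Sor replicate 1, and with the compared groups alone fitted (adjusted p = 0.0869). The interaction of genotype and sorbitol, −0.92 log2 units (SE 0.28, adjusted p = 0.041), lost its call in 11 of 24 such fits (adjusted p 0.0145 to 0.085) and was −0.04 log2 units (adjusted p = 0.98) with the other isotonic group. GPC6 shares 7.36% of its exon bases with a gene on the opposite strand.

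HSPG2, perlecan, did not pass between WNK2- and WT cells, at 0.33 log2 units (SE 0.22, adjusted p = 0.253) in isotonic media and 0.05 log2 units (SE 0.22, adjusted p = 0.866) under sorbitol. The former was −0.11 log2 units (adjusted p = 0.714) with WNK2 trans Ctr as the isotonic group. It had 1454, 1540, 1422 and 1377 normalized counts in WT Sor, and 560.7, 347.3, 869.7 and 551.8 in WNK2 trans Sor. The groups did not overlap, with a log2 fold change of −1.32 (SE 0.23, adjusted p = 9.59e-05), or −0.79 log2 units (adjusted p = 0.00012) after the GC correction. That correction also brought past the threshold the difference of WT Sor from WT Ctr (−0.04 before, −0.49 after, adjusted p = 0.00976) and of WNK2- Sor from WT Sor (0.39 after, adjusted p = 0.0232). The libraries labelled WT Ctr spread from 768.6 to 2030 and those labelled WNK2 trans Ctr from 1480 to 2438. On the opposite strand 11.7% of its exon bases are shared with another gene.

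Over the 24 libraries, log2 CPM of SULF1 and SULF2 ran together with Pearson's r of 0.96, those of SDC3 and GPC1 with 0.96, and those of SDC2 and GPC6 with 0.90. SULF1 and GPC4 ran in opposite directions (r of −0.91). Values with SULF1 over the 24 libraries include the split of WNK2- and WT cells that chose SULF1. GPC4 passed in no comparison within wild-type cells. These values describe libraries that share groups, line and, for the GC-rich pair of SDC3 and GPC1, base composition, and they carry no test. Among the 12160 genes whose mean log2 CPM reached 1, those most like SULF1 over the 24 libraries were CDH6 (0.99), PLA2R1 (0.99), PTPRO (0.99), SPRY1 (0.98), an inhibitor of FGF signalling, and SOBP (0.98). Over the 16 wild-type libraries alone they were TMOD1 (0.97), ITGA11 (0.97), an integrin subunit that binds collagen, ANK3 (0.97), C7 (0.96) and MKX (0.96), a transcription factor of tendon, so none of the 5 was shared between the lists.

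Tested genes that start within 2 Mb of a member were counted in WNK2- against WT cells. Near SULF1 there were 10, with a median log2 fold change of −0.69 (−4.80 to 2.61) in isotonic media and −0.78 (−5.11 to 2.63) under sorbitol, 4 lower and 2 higher in each. Of all tested genes 21.5% were lower and 20.7% higher in isotonic media, and 22.7% and 23.7% under sorbitol. Near SULF2 there were 49, with medians of −0.18 (−2.40 to 1.99) and −0.12 (−2.43 to 1.88). Of these, 19 were lower and 9 higher in isotonic media, and 20 and 10 under sorbitol. Near SDC2 23 genes had medians of −0.50 (−5.98 to 0.54) and −0.19 (−8.57 to 1.14), with 13 lower and 2 higher, and 8 and 5 under sorbitol. Near GPC4 20 genes had 0.08 (−1.22 to 2.48) and 0.25 (−2.17 to 2.91), with 3 lower and 6 higher, and 2 and 5 under sorbitol. Near GPC6 5 genes had −0.13 (−0.46 to 0.72) and −0.07 (−0.67 to 0.95), with 1 lower and 1 higher, and 0 and 2 under sorbitol. Single neighbours of SULF2, SDC2 and GPC4 thus changed as much as the member did in at least 1 medium, and the part of neighbouring changes in those of the members was not tested.

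The other genes of the pathway were taken from a list of 7 further core proteins, of which 6 were tested, and 45 genes of chain synthesis, sulfation and breakdown, of which 33 were tested. In WNK2- Ctr against WT Ctr 9 of the 33 were higher and 12 lower, where 20.7% and 21.5% of all tested genes were, with a median log2 fold change of −0.10 beside 0.00 for all genes. Under sorbitol 6 were higher and 14 lower, against 23.7% and 22.7% (median −0.22 beside 0.02). Sorbitol in WT cells gave 10 higher and 3 lower, against 11.4% and 12.7%, and 5 and 1 with WNK2 trans Ctr as the isotonic group, against 8.74% and 6.31%. In WNK2- cells it gave 2 higher and 3 lower, against 8.25% and 6.64%. The transfection label gave 2 higher and 2 lower in isotonic media, against 5.57% and 6.98%. Under sorbitol it gave 2 higher and 11 lower, against 16.1% and 15.5%. WNK2 trans Sor against WNK2 trans Ctr gave 8 higher and 11 lower, against 24.3% and 23.7%. NDST3, HS6ST3 and SGSH, counted as higher in WNK2- Ctr, lay near the filter on low counts. Their means were 0.30, 1.2 and 4.08 normalized counts in WT Ctr and 7.37, 5.81 and 14.9 in WNK2- Ctr. NDST3 was also counted in WNK2- Sor, NDST3 and HS6ST3 in WT Sor, and HS6ST3 and PXYLP1 in WNK2 trans Sor. Such genes can pass the filter through the group where they are high, so these calls are not read as results.

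Chain synthesis begins with xylose, which XYLT1 attaches to the core protein. The WT Ctr libraries held 66.3 to 156.8 normalized counts of XYLT1 and the WT Sor libraries 409.4 to 443.2, while WNK2- Ctr held 19.0 to 33.6 and WNK2- Sor 17.5 to 30.0. In the libraries labelled WNK2 trans Ctr it had 328.3 to 389.3 and in WNK2 trans Sor 128.5 to 160.6, so the order of the groups was like that of SULF1. WNK2- cells were lower with log2 fold changes of −2.29 (SE 0.22, adjusted p = 6.01e-09) in isotonic media and −4.23 log2 units (SE 0.22, adjusted p = 2.81e-14) under sorbitol. WT Sor exceeded WT Ctr by 1.77 log2 units (adjusted p = 2.28e-07), but differed from WNK2 trans Ctr by 0.26 log2 units (adjusted p = 0.356). FAM20B, the kinase that phosphorylates that xylose, fell by 0.39 log2 units in WT Sor (adjusted p = 0.00536), a call also lost with the other isotonic group (log2 fold change −0.20, adjusted p = 0.186).

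Of the polymerases that extend the chain, EXT1 was higher in WNK2- Ctr than in WT Ctr by 0.72 log2 units (SE 0.11, adjusted p = 6.24e-06). EXT1 was also higher with the transfection label, by 0.38 log2 units in isotonic media (adjusted p = 0.0179) and 0.41 under sorbitol (adjusted p = 0.00448). EXTL2 was lower in WNK2- Sor than in WT Sor by a log2 fold change of −0.98 (adjusted p = 2.89e-06). EXTL3, which adds the sugar that commits a chain to heparan sulfate, fell by 0.43 log2 units with sorbitol in WNK2- cells (adjusted p = 0.000382) and was lower in WNK2 trans Sor than in WT Sor by a log2 fold change of −0.49 (adjusted p = 4.1e-05). EXT2 differed by −0.29 log2 units between WT Sor and WT Ctr (adjusted p = 0.0115) and by −0.38 log2 units between WNK2 trans Ctr and WT Ctr (adjusted p = 0.00188), and the former turned to 0.10 log2 units (adjusted p = 0.483) with the other isotonic group. The former was also lost with no filter on low counts (adjusted p = 0.0731), with the compared groups alone fitted (0.0898) and without WT Ctr replicate 2 (0.0655). With the compared groups alone fitted, the isotonic transfection calls of EXT2 (adjusted p = 0.0838) and EXT1 (0.0658) were lost too.

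The sulfate donor PAPS is made by PAPSS1 and PAPSS2 and carried into the Golgi by SLC35B2. PAPSS2 was higher in WNK2- cells, by 1.30 log2 units in isotonic media (SE 0.09, adjusted p = 3.38e-11) and 0.71 under sorbitol (SE 0.09, adjusted p = 5.55e-07), while SLC35B2 was lower, with log2 fold changes of −1.04 (SE 0.09, adjusted p = 2.51e-09) and −1.23 (SE 0.10, adjusted p = 7.01e-11). PAPSS2 had 799.4 to 1065 normalized counts in WT Ctr and 2193 to 2343 in WNK2- Ctr, and SLC35B2 had 1728 to 1970 and 846.1 to 903. PAPSS1 rose by 0.58 log2 units with sorbitol in WNK2- cells (adjusted p = 1.03e-06). In WNK2 trans Sor both PAPSS2 (log2 fold change −0.74, adjusted p = 1.13e-06) and SLC35B2 (log2 fold change −0.49, adjusted p = 0.000239) lay below WT Sor.

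Among the enzymes that modify the chain, HS3ST3B1, a 3-O-sulfotransferase, had 711.8 to 930.6 normalized counts in WT Ctr and 1606 to 1712 in WT Sor, with a difference of 1.06 log2 units (SE 0.11, adjusted p = 3.2e-07). It was 0.94 higher in WNK2 trans Sor than in WNK2 trans Ctr (SE 0.11, adjusted p = 2.15e-07). HS3ST3B1 thus differed from SULF1 in following the sorbitol label in both. In WNK2- Sor it had 584.4 to 613.6, lower than WT Sor by a log2 fold change of −1.48 (SE 0.11, adjusted p = 8.03e-11). Its paralogue HS3ST3A1 was higher in WNK2 trans Sor than in WNK2 trans Ctr by 1.13 log2 units (adjusted p = 1.3e-07) and rose by 0.43 log2 units with sorbitol in WNK2- cells (adjusted p = 0.0176, lost without WNK2- Ctr replicate 1 at 0.061 or WNK2- Sor replicate 4 at 0.0632, and with no filter on low counts at 0.0513). GLCE, the C5-epimerase, was lower in WNK2- Sor than in WT Sor by a log2 fold change of −0.92 (adjusted p = 2.07e-06), and NDST1, an N-deacetylase and sulfotransferase, fell by 0.46 log2 units with sorbitol in WNK2- cells (adjusted p = 0.000231). Of the enzymes that break chains down, HPSE (heparanase) was lower in WNK2- Ctr than in WT Ctr with a log2 fold change of −1.13 (adjusted p = 1.34e-06), ARSG was higher by 1.18 log2 units (adjusted p = 9.1e-06), and GUSB fell by 0.46 log2 units in WT Sor (adjusted p = 0.00341) and by 0.41 log2 units with sorbitol in WNK2- cells (adjusted p = 0.0113). SUMF1, which activates sulfatases, was 0.37 higher in WT Sor than in WT Ctr (adjusted p = 0.00336), and differed by 0.14 log2 units (adjusted p = 0.342) with the other isotonic group.

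**Figure D4:**
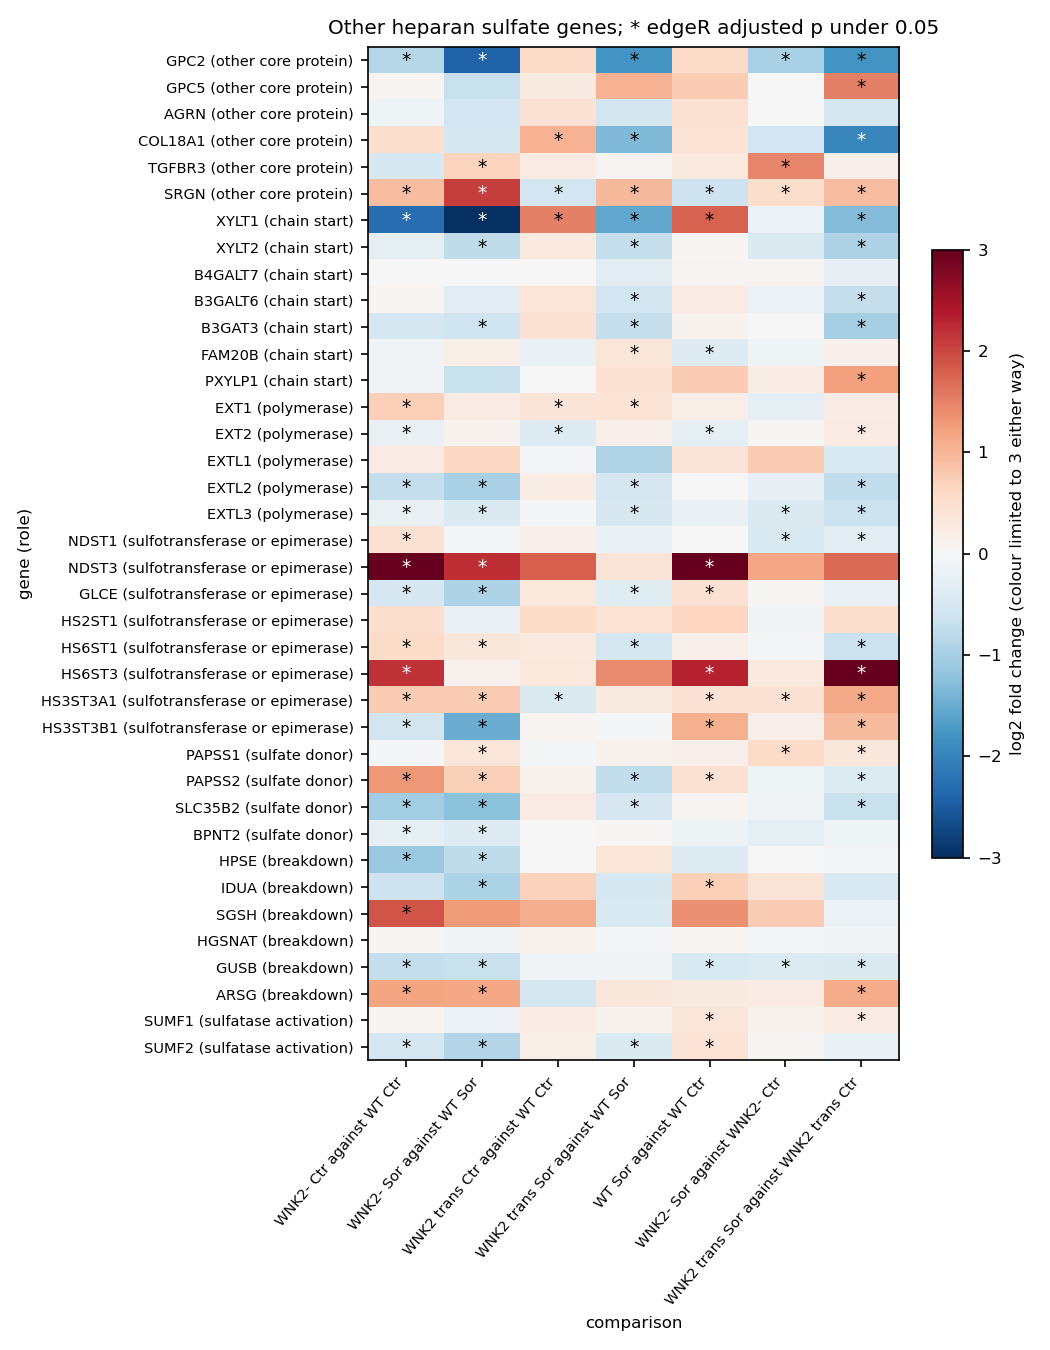
Log2 fold change (colour, limited to 3 in either direction) of 38 tested genes of the wider list (rows, with their role) in 7 comparisons (columns), an asterisk marking an edgeR adjusted p under 0.05. XYLT1 is blue in both WNK2- columns (−2.29 and −4.23) and SRGN red (0.92 and 2.08).

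Of the further core proteins, SRGN (serglycin, an intracellular proteoglycan of secretory granules) was higher in WNK2- cells by 0.92 log2 units in isotonic media (SE 0.14, adjusted p = 5.61e-06) and 2.08 under sorbitol (SE 0.14, adjusted p = 5.74e-12). It had 1191 to 1405 normalized counts in WT Sor and 4872 to 6031 in WNK2- Sor. GPC2 was lower in WNK2- Sor than in WT Sor by a log2 fold change of −2.42 (SE 0.30, adjusted p = 3.62e-07), at 14.49 to 28.04 normalized counts against 115.7 to 133.8. It differed by −0.86 log2 units in isotonic media (adjusted p = 0.0191), which was lost without WT Ctr replicate 1 (log2 fold change −0.49, adjusted p = 0.165) and without WNK2- Ctr replicate 2 or 3 (0.0617 and 0.0552), and with the compared groups alone fitted (0.0603). COL18A1, whose fragment is endostatin, was lower in WNK2 trans Sor than in WT Sor by a log2 fold change of −1.33 (SE 0.30, adjusted p = 0.00124), and TGFBR3 (betaglycan) rose by 1.46 log2 units with sorbitol in WNK2- cells (SE 0.20, adjusted p = 8.72e-06). AGRN (agrin) spread from 3141 to 10390 normalized counts within WT Ctr and passed in none of the 7 pairwise comparisons of the joint fit (log2 fold changes of −0.57 to 0.45). AGRN passed in WNK2- Sor against WT Sor with those groups fitted alone (log2 fold change −0.58, adjusted p = 4.54e-05), with no filter (adjusted p = 0.0293) and in 3 of 24 fits that left out a library. Without WNK2 trans Sor replicate 1 it passed in WNK2 trans Sor against WT Sor (log2 fold change −0.83, adjusted p = 0.0157) and against WNK2 trans Ctr (log2 fold change −0.81, adjusted p = 0.0128), and without WT Ctr replicate 2 it passed in both as well (adjusted p = 0.0347 and 0.0279). After the GC correction it passed in WNK2- Ctr against WT Ctr (log2 fold change −0.28, adjusted p = 0.0166). GPC5 passed in 1 pairwise comparison, at 1.52 in WNK2 trans Sor against WNK2 trans Ctr (adjusted p = 0.0129), and without WT Sor replicate 1 also in WNK2 trans Sor against WT Sor (log2 fold change 1.46, adjusted p = 0.043). Its means were 11.6 normalized counts in WNK2 trans Ctr and 32.9 in WNK2 trans Sor. These lie near the filter on low counts, so the GPC5 calls are not read as results either. GPC3, with at most 8 counts in a library, was not tested. NDST2, IDS and SLC35B3 were listed at 0 to 2 counts. NDST2 shares 82.9% of its exon bases with a gene on the same strand and IDS 17.4%.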

How the data were processed

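RNA from 24 cultures of T/C-28a2 cells was enriched for poly(A) transcripts and sequenced. The authors deposited raw read counts per Ensembl gene, made without normalization with HISAT2 2.2.1 and HTSeq 2.0.2 on GRCh38 per the submitters' processing notes. The strand setting and the annotation are not given in the sources used here. Replicates are stated to be biological, and same-numbered samples are not stated to be paired (median correlation of deviations 0.008 over 60 same-number pairs and 0.001 over 180 others).

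In R 4.3.3, edgeR 4.0.16 fitted 6 group means jointly to the genes kept by filterByExpr (minimum count 10, minimum total 15), with TMM scaling, the quasi-likelihood test and Benjamini-Hochberg adjustment over 16600 genes at 0.05. The standard error is the log2 fold change over the root of F. Normalized counts are counts over the effective library size, times its mean of 18363858. Positions and exon lengths are from GENCODE 29, and 62625 identifiers matched a symbol. DESeq2 1.42.0 was an alternative, and the test was tried on simulated counts. The members and lists were chosen with earlier results of these data known. Named pathway genes are up to 8 called genes with the smallest adjusted p per comparison, plus GPC2, GPC3, GPC5, AGRN and COL18A1, and 1 gene that this rule names is not reported here. Replicates differed by more than counting noise (chi-square per degree of freedom 2.30 to 68.4 over 36 pairs).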

Additional observations from a re-analysis of the deposited data

Results flagged for a closer look

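In 60 sets of 4 libraries, a single library stood apart from the other 3 in 4, by Dixon's gap test at the 95% level, and chance alone flags about 1 in 20. SDC1 had 2336 normalized counts in WT Sor replicate 3 and 2603 to 2656 in the others. GPC1 had 5177 in WNK2 trans Ctr replicate 3 and 4245 to 4364 in the others. GPC4 had 15.06 in WNK2 trans Sor replicate 2 and 7.22 to 7.40 in the others. GPC6 had 230.2 in WNK2- Ctr replicate 1 and 312.1 to 325.6 in the others.

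The response to sorbitol differed between groups by edgeR's interaction term for the following members, given as differences of log2 fold changes. Between WNK2- and WT cells they were −0.521 for SULF2 (adjusted p = 0.0136), −1.188 for GPC1 (adjusted p = 0.0207) and −0.919 for GPC6 (adjusted p = 0.041). Between the transfection labels and WT they were −3.434 for SULF1 (adjusted p = 1.07e-14), −2.271 for SULF2 (adjusted p = 1.37e-12), −1.386 for SDC2 (adjusted p = 5.68e-06) and −1.701 for SDC3 (adjusted p = 2.64e-05). In the same contrast SDC4 had 0.896 (adjusted p = 1.53e-06), GPC1 −1.995 (adjusted p = 2.84e-05), GPC6 −1.396 (adjusted p = 0.000305) and HSPG2 −1.749 (adjusted p = 0.000132). These terms use both isotonic wild-type groups, whose WNK2 counts go against their labels, and with those groups exchanged SULF2 passed in both contrasts with the opposite sign, SDC4 passed in the contrast of WNK2- and WT cells (−0.45, adjusted p = 0.0292), and the other members did not pass.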

How the results depend on the processing

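The counts of called genes held within 1.5 times under DESeq2, RLE factors, no filter, at least 10 counts in every library (GPC4 left out) and the replicate block, apart from the following. With the other isotonic wild-type group, called members in the interaction of transfection and sorbitol went from 8 to 1, and called heparan sulfate enzymes from 17 to 3, from 13 to 6 for sorbitol in WT and from 5 to 3 for the interaction with genotype. With only the compared groups fitted, sorbitol in WNK2- cells went from 4 to 7 members and from 5 to 12 enzymes, and the isotonic transfection label from 4 to 1 enzymes. With the GC and length correction, chosen after seeing the data, sorbitol in WT went from 3 to 5 members, and enzymes went to 10 for the isotonic transfection label, 11 for sorbitol in WNK2- cells and 9 for the interaction with genotype. Leaving out a library gave 1 to 4 members for the interaction with genotype (1 without WNK2- Sor replicate 3) and 8 to 15 enzymes for sorbitol in WT (8 without WT Ctr replicate 3). The share of all tested genes called was counted only for the joint fit and for the exchanged isotonic groups. Shifts in the other fits are thus not read as particular to these members or enzymes. The cause of these shifts was not tested.

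Among values past the threshold in either fit, and SULF1, signs turned with the other isotonic wild-type group for SULF1 in the interaction with genotype (0.031 log2 units, not tested), SULF2 in sorbitol in WT (−1.067), in the interaction with genotype (0.92) and with transfection (0.612), and SDC4 in sorbitol in WT (0.073) and WNK2- against WT (0.28). They turned likewise for GPC6 (0.358) and EXT2 (−0.222) in the interaction with transfection, EXT2 in sorbitol in WT (0.095) and XYLT1 in sorbitol within the transfection label (0.206). A further 7 member values that passed in neither fit also turned, among them GPC1 for sorbitol in WT (−0.471) and SDC3 (−0.353). With that group, called members for sorbitol in WT went from 2 higher and 1 lower to 0 and 3. With the GC correction SDC1 within the transfection label (0.363) and AGRN in the interaction with transfection (0.109) turned.

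The replicate number as a block left the called members at 3 for sorbitol in WT, 5 and 6 for WNK2- against WT, 6 and 8 for the transfection label and 4 for sorbitol in WNK2- cells. Of 24 libraries, 8 correlated best with a library of their own number, so the numbers are not taken to pair samples. At about 15 normalized counts in wild-type libraries, GPC4 is the member whose precision depth limits most.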
